A study of Mus musculus with 3 samples.

Results

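Tumour organoids exposed to 5-Aza-CdR (5-aza-2'-deoxycytidine, decitabine) were compared with untreated tumour organoids on microRNA arrays. The comparison used 2 of the 3 arrays of the study, chosen by their labels: 1 array of untreated and 1 of treated organoids. Both cultures derived from tumours of the intestine of ApcMin mice, a strain with a truncating germline mutation of the tumour suppressor gene Apc. Both were kept in Matrigel with a medium free of serum that held R-spondin 1, EGF and Noggin, and the treated culture received 5-Aza-CdR at 1 uM. The sources used here do not state the time of exposure, the number of mice or whether both cultures came from the same tumour. The third array, of organoids from normal intestinal epithelium of wild-type mice, entered the normalization and is quoted beside the tumour arrays. With 1 array in a group, no difference has a replicate check and no p-value is given, and the treatment cannot be told apart from the culture, the RNA extraction or the array.

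5-Aza-CdR is a cytidine analogue that is built into DNA at replication and traps DNA methyltransferases, so that methylation is lost as cells divide. MicroRNAs are short RNAs cut from hairpin precursors whose arms, named 5p and 3p, can each become a mature microRNA. Bases 2 to 8 of the mature strand, the seed, pair with target messenger RNAs, and microRNAs that share a seed form a family. Several microRNAs have been described as silenced by methylation of their promoters in tumours.

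The sequences below are those of the probes with the largest differences, with the seed in capitals. They were read from RefSeq (GRCm38.p6), 5′ to 3′. Of the 427 bright probes defined below, 353 had a mature sequence in that table, and miR-3096a-5p was not among them.
miR-22-3p: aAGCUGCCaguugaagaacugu
miR-711: gGGACCCGgggagagauguaag
miR-34a-5p: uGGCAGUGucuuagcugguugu
miR-27a-3p: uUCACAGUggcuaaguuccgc
miR-221-3p: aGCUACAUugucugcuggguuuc
miR-6412: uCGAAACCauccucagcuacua
miR-210-3p: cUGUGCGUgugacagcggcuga
miR-194-5p: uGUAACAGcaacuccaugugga
miR-5129-5p: aUGUGGGGgcauugguauuuuc
miR-3087-5p: cAGGGCAGggcaagaguugag
miR-192-5p: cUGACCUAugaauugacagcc

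The next set shows relatives whose values are set beside these: miR-222-3p has the seed of miR-221-3p, miR-215-5p that of miR-192-5p, and the let-7, miR-29 and miR-30 sequences are families described below.
miR-222-3p: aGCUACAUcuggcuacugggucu
miR-215-5p: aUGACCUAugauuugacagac
miR-23a-3p: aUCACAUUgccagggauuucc
let-7a-5p: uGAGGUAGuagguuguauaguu
let-7e-5p: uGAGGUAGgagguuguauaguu
let-7f-5p: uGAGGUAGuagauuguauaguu
miR-29a-3p: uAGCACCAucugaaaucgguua
miR-29c-3p: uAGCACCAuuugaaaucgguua
miR-30a-5p: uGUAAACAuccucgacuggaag
miR-30e-5p: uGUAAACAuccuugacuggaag
Within such a family the sequences outside the seed are also close, so one probe can bind a relative, and the probes' own sequences were not used here.

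Each array held 1265 microRNA probes at 1 spot each. The scanner value is the median brightness of a spot, and the mean of the blank spots (29.4 on the untreated and 22.6 on the treated array) was taken as background. A probe was called bright when its signal above blank exceeded that of the brightest negative control spot of the same array, 23.6 on the untreated and 15.7 on the treated array. On at least 1 of the 2 arrays 427 of the 1265 probes were bright: 391 on both, 19 on the untreated array only and 17 on the treated array only. Signals of single probes quoted below are above blank and unscaled. Their median over bright probes was 59.2 on the wild-type, 93.8 on the untreated and 63.2 on the treated array. An order of the 3 arrays in these signals is therefore an order before scaling. Normalized differences below are log2 values after a background correction with an offset of 50 and quantile normalization, which makes signals of dim probes look more alike than they are.

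The treated array was the dimmer one for most probes. The signal above blank of a bright probe on the treated array was a median of 0.641 times that on the untreated array. Of the 427, 24 were brighter on the treated array and 403 were dimmer, with ratios from 0.342 to 2.34. The 2 kinds of spike control spots, 8 of each, were dimmer by a like factor: Spike Control 1 averaged 7951 ± 801 (SD over spots) on the untreated and 5007 ± 339 on the treated array, a ratio of 0.630, and the ratio for Spike Control 2 was 0.625. A common shift of all microRNAs therefore cannot be told apart from a difference between the arrays. The median normalized difference of bright probes was -0.02, and it moved with the scale used: it was -0.17 with scaling to the median of commonly detected probes, -0.26 with that of all probes, -0.24 in the authors' values, 0.36 with scaling to the spike controls after the offset and 0.06 with the same scaling without an offset. Differences are accordingly read against the median of bright probes.

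Against that median, few microRNAs stood apart. The normalized differences ranged from -0.80 to 1.33 with an SD of 0.24, and 331 of 427 (77.5%) lay within 0.25 of 0. As a measure of spot noise, the log2 difference of single Spike Control 1 spots between the arrays had an SD of 0.17, which leaves out differences between cultures, extractions and hybridisations. These spots were far brighter than the median bright probe, and the SD was taken before the offset and normalization. It therefore does not give the noise of the normalized differences of dim probes. At least 1.5-fold higher in treated organoids were 6 probes (1.41% of bright probes), and at least 1.5-fold lower were also 6 (1.41%). Of these, 1 was at least 2-fold higher (0.234%) and 0 were at least 2-fold lower (0%). The 6 higher probes were miR-22-3p, miR-34a-5p, miR-221-3p, miR-27a-3p, miR-711 and miR-3096a-5p. The 6 lower probes were miR-192-5p, miR-194-5p, miR-210-3p, miR-6412, miR-3087-5p and miR-5129-5p.

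**Figure D1:**
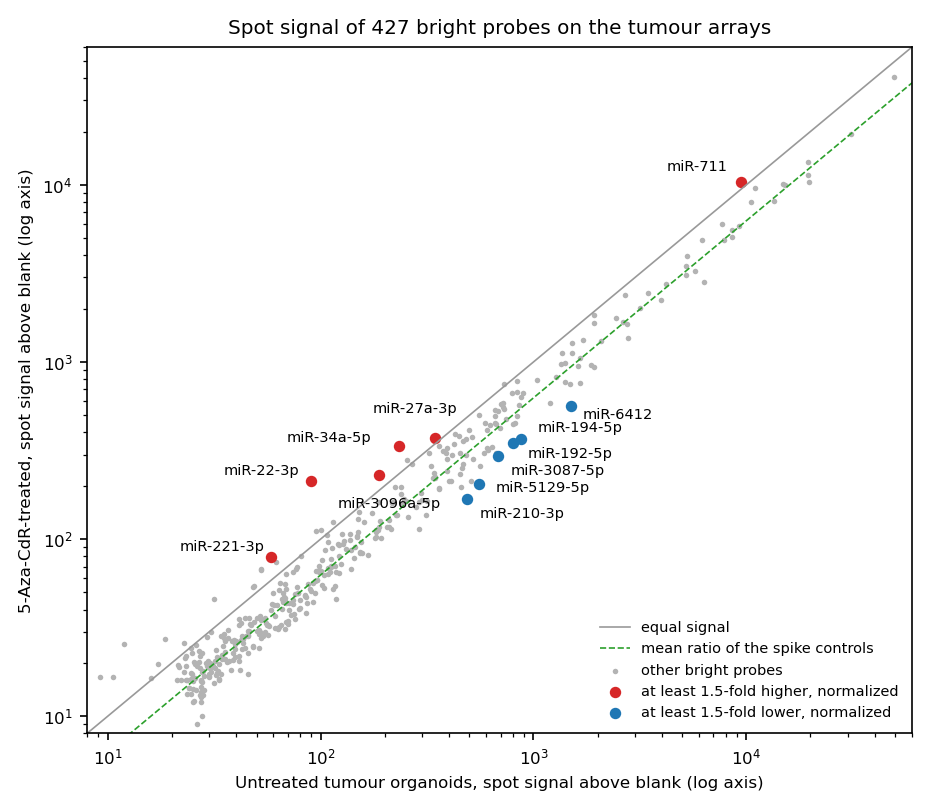
Signal above blank of the 427 bright probes on the untreated (x) and treated (y) tumour array, both on log axes, 1 point a probe. Most points lie along the dashed line of the spike controls, below the line of equal signal, and the named points are the 6 higher and 6 lower probes.

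miR-22-3p had the largest difference. This microRNA, which is encoded in the long noncoding RNA gene Mir22hg on chromosome 11, is known as a repressor of the methylcytosine dioxygenases of the Tet family. Its signal above blank was 88.3 in wild-type, 90.4 in untreated tumour and 212 in treated tumour organoids. Before scaling, both untreated cultures thus lay close together and the treated one apart. The ratio of signals between treated and untreated, 2.34, was the highest of all bright probes before any scaling. The normalized difference was 1.33, or 2.51-fold, and relative to the median of bright probes it lay between 1.23 and 1.89 over the 8 alternative settings other than the per-spot background column, under which it was 0.88. Relative to that median, scaling after the offset to either probe median or to the spike controls gives the same value. The 8 settings are therefore not 8 separate checks, here and below.

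miR-34a-5p, which p53 induces and which is often methylated in colorectal tumours, gave 105 in wild-type, 233 in untreated and 335 in treated organoids. The treated array was the highest of the 3. Its normalized difference was 0.91, and 0.77 to 1.16 relative to the median of bright probes over the 8 settings, with 0.45 under the per-spot background column. It was the only 1 of the 6 probes of the miR-34 family that was bright.

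miR-221-3p gave signals of 50.9, 58.7 and 78.7 above blank in wild-type, untreated and treated organoids, a normalized difference of 0.59. Its neighbour on the X chromosome and seed partner miR-222-3p gave 11.5, 11.9 and 25.5, so it was bright on the treated array only. Both microRNAs repress the cell-cycle inhibitor p27. The ratio of treated to untreated signal of miR-222-3p, 2.14, was the highest of all bright probes after that of miR-22-3p, while its normalized difference of 0.43 is drawn towards 0 by the offset. The median of the pair was 0.51, and 0.54 to 1.40 relative to the median of bright probes over the 8 settings, but 0.05 under the per-spot background column. Because miR-222-3p entered the bright probes through the treated array, its rank and the median of the pair give no separate support to miR-221-3p.

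miR-27a-3p gave 131, 345 and 371 above blank in wild-type, untreated and treated organoids. On this probe both tumour arrays were high and the treated one slightly higher. Its normalized difference was 0.73, which became -0.17 with the per-spot background column. miR-27a lies on chromosome 8 in 1 cluster with miR-23a and miR-24-2, known for roles in differentiation and angiogenesis. miR-23a-3p gave 726 in untreated and 750 in treated organoids, with a difference of 0.54, whereas miR-24-3p, which is made from both this cluster and that of miR-23b, was at -0.05. In the paralogous cluster on chromosome 13, miR-23b-3p was at 0.50 and miR-27b-3p at 0.23. Over the 6 bright of 11 probes of both clusters the median was 0.36, with 5 above 0, beside 42.9% of all bright probes. It was 0.23 to 0.46 relative to the median of bright probes over the 8 settings. miR-27b-3p itself lay just below that median (-0.02) in the 3 settings that apply 1 scale factor after the offset (both medians and the spike controls).

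The remaining higher probes were miR-711 and miR-3096a-5p. miR-711, which lies within the collagen gene Col7a1, gave 23203 in wild-type, 9467 in untreated and 10408 in treated organoids. The signals of the tumour arrays differed only 1.10-fold, and the normalized difference of 0.98 was only 0.21 when arrays were scaled to the median of all probes. Among the few brightest probes a step in rank is a large step in the quantile-normalized value: miR-2137, the brightest probe of both arrays, and miR-5126 held the same rank on both and so had a difference of 0. miR-3096a-5p gave 197, 189 and 230, with a difference of 0.69 that became -0.41 with the per-spot background column, and its 3p arm was at 0.05.

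Just under 1.5-fold higher were miR-5121 (0.55), miR-710 (0.54), miR-3091-5p (0.54), miR-203-3p (0.53), miR-6406 (0.50), let-7e-5p (0.50) and let-7f-5p (0.49). miR-203-3p, an epithelial microRNA that promotes differentiation in skin, gave 61.5 in untreated and 74.4 in treated organoids. The signals of let-7e-5p were 101 and 112. Both were thus among the 24 probes brighter on the treated array, as were several dim probes that were bright on that array only, among them miR-146a-5p (9.20 and 16.6), miR-362-3p (10.5 and 16.6), miR-193a-3p (18.6 and 27.3) and miR-155-5p (15.9 and 16.5). For signals of this size the offset exceeds the signal, and their normalized differences were 0.29, 0.26, 0.35 and 0.15.

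Among the lower probes were 2 microRNAs of the intestinal epithelium, miR-194-5p and miR-192-5p. Epithelial microRNAs were not lower as a whole. In the miR-200 family, described below, 6 of 8 bright probes were above 0, beside 42.9% of all bright probes. Among the 6, miR-141-5p was bright on the treated array only and entered the count through it. miR-194-5p gave 3483 in wild-type, 877 in untreated and 369 in treated organoids, a normalized difference of -0.69. miR-192-5p, its neighbour on chromosome 19, gave 2210, 801 and 347, a difference of -0.60. On both probes the order of the arrays was wild type, untreated tumour, treated tumour. Both are abundant in enterocytes and both are also induced by p53. In such bulk RNA, fewer cells of a type and less of a microRNA per cell cannot be told apart. With the per-spot background column the differences took the opposite sign, at 1.46 and 0.27.

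The other bright members of this group were dim. miR-215-5p, which shares its seed with miR-192-5p, gave 1241 in wild-type organoids but 33.4 and 19.7 on the tumour arrays, and miR-194-2-3p gave 27.5 and 16.1 on the tumour arrays. Their unscaled ratios were 0.590 and 0.583, against 0.421 for miR-194-5p, 0.433 for miR-192-5p and 0.641 for the median bright probe. Over the 4 bright of 7 probes the median difference was -0.33, with 0 above 0, and -0.38 to -0.29 relative to the median of bright probes over the 8 settings, but 0.15 under the per-spot background column. Among the dim members, miR-215-5p (0.07) and miR-194-2-3p (0.10) lay above that median in the 3 settings that apply 1 scale factor after the offset. miR-194-5p is also made from a gene on chromosome 1 beside miR-215, so its signal cannot be assigned to either locus.

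miR-210-3p, the microRNA most closely tied to induction by hypoxia-inducible factor, gave 345 in wild-type, 489 in untreated and 168 in treated organoids. The treated array was the lowest of the 3. Its normalized difference was -0.76, and -0.97 to -0.79 relative to the median of bright probes over the 8 settings, but 0.29 with the per-spot background column. The 5p arm of the same precursor gave 76.1 and 49.2 on the tumour arrays, a ratio of 0.646 close to that of the median bright probe, and a difference of -0.02.

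miR-6412, encoded in the noncoding gene Gm36284 on chromosome 10, had the largest negative difference, -0.80. It gave 1368, 1493 and 564 in wild-type, untreated and treated organoids. Only the treated array was low. miR-5129-5p, within Zeb2, gave 130, 555 and 205, a difference of -0.68, and miR-3087-5p, within Abca2, gave 244, 682 and 293, a difference of -0.65. For these 2 the treated culture lay between wild type and untreated tumour. These 3 kept a negative difference with the per-spot background column too. Just short of 1.5-fold lower were miR-5617-5p (-0.53), miR-6244 (-0.53), miR-1906 (-0.51), miR-351-3p (-0.51) and miR-1902 (-0.50).

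**Figure D2:**
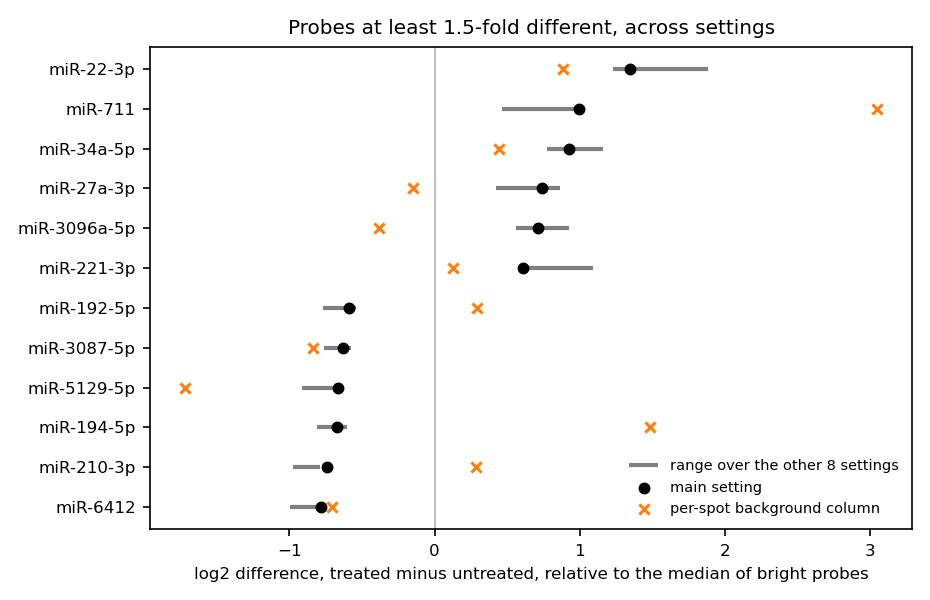
Normalized log2 difference, treated minus untreated, of the 6 higher and 6 lower probes relative to the median of bright probes, with the range over 8 alternative settings as a bar and the per-spot background column as a cross. No bar reaches 0, while the crosses of miR-27a-3p, miR-3096a-5p, miR-192-5p, miR-194-5p and miR-210-3p lie on the other side of it.

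All 12 probes kept their sign in 8 of 8 alternative settings other than the per-spot background column, both as they stand and relative to the median of bright probes. Relative to that median, the 3 settings that apply 1 scale factor after the offset are the same setting. The authors' values and the spike controls without an offset nearly coincide too, so there are fewer than 8 separate checks. The per-spot background correlated with the spot signal at r = 0.99 on the untreated and 0.98 on the treated array, across spots on a log scale, so that subtracting it removes signal with background.

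Families with a shared seed were compared through the probes that had a sequence. Of 31 families with at least 2 such bright probes, 11 had at least 3, and in 6 of these 11 every member lay above the median of bright probes while in 0 every member lay below it. miR-30b-5p, which has the miR-30 seed but no sequence in the table, lay below the median, and with it the count above is 5. The count also depended on the scale: it was 3, with 1 family wholly below, in the 3 settings that apply 1 scale factor after the offset, and 0, with 1 below, with the per-spot background column. The let-7 family, which restrains growth and is processed under the control of Lin28, had 10 of 10 bright 5p probes above, with a median of 0.20 and a range from 0.06 to 0.50. let-7a-5p gave 794 in untreated and 666 in treated organoids, and let-7f-5p gave 429 and 391. The family's median stayed 0.10 to 0.35 above that of bright probes over the 8 settings, though let-7d-5p, let-7b-5p and let-7g-5p passed below it with 1 scale factor after the offset.

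The miR-29 family, which targets the methyltransferases Dnmt3a and Dnmt3b in human cells, gave differences of 0.22 (miR-29a-3p), 0.22 (miR-29b-3p) and 0.26 (miR-29c-3p). Its signals were 722 and 589, 467 and 356, and 108 and 96.8 in untreated and treated organoids. The family stayed above the median of bright probes by 0.06 to 0.35 over the 8 settings, although miR-29b-3p alone passed just below it (-0.02) in 3 of them. miR-148a-3p, which was described to target Dnmt1 and Dnmt3b, went the other way, with 103 and 53.1 above blank and a difference of -0.24.

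miR-30a-5p and miR-30e-5p had ratios of unscaled treated to untreated signal of 0.934 and 0.987, and differences of 0.35 and 0.36. miR-30b-5p gave 522 and 285, a difference of -0.27. The miR-30 family, which is known to promote epithelial differentiation, was therefore not uniform: of 7 bright probes of 11, 6 were above 0 and miR-30b-5p was below. Of all bright probes, 42.9% were above 0. Among the 6, miR-30e-3p (21.7 and 19.0) was bright on the treated array only and entered the count through it. The miR-99/100 family had a median of 0.21 over 3 probes, the miR-181 family 0.12 over 4 and the family of miR-25 and miR-92 0.13 over 3, and these 3 families had every member above the median of bright probes in the 3 settings with 1 scale factor after the offset as well. In those settings miR-30c-5p passed below it (-0.08). Of the miR-99/100 family, miR-99a-5p (21.5 and 19.5) and miR-100-5p (17.1 and 19.7) were bright on the treated array only. They entered the family through that array, so its place above the median is no separate result.

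**Figure D3:**
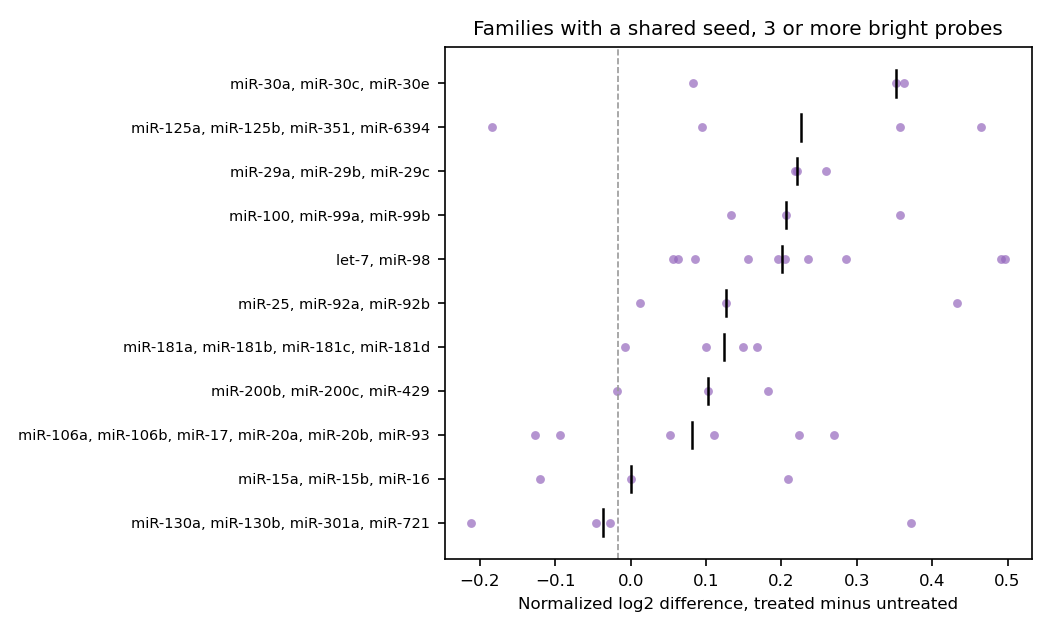
Normalized log2 difference, treated minus untreated, of each bright probe in the 11 seed families with 3 or more of them. Points are probes, short black lines are family medians and the dashed line is the median of bright probes, -0.02. All 10 points of the let-7 family lie to its right.

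Base composition moved with these differences. Across the 353 bright probes with a sequence, the difference and the share of G+C correlated at r = -0.22 (Spearman's rho -0.29), a description over probes that share 2 arrays. With the per-spot background column these values were -0.08 and -0.12. Of 4 classes of G+C, probes in the lowest (31.8% to 47.8%, 95 probes) had a median difference of 0.06, and those in the highest (65% to 100%, 86 probes) had -0.07. The 46 probes of the 11 seed families were poor in G+C, with a median of 43.5% against 58.8% for all 353. Of these 46, 38 (82.6%) lay above the median of bright probes, against 34 of the 61 other probes (55.7%) in the lowest class of G+C. The part of base composition in the family differences was not tested. Among the probes at least 1.5-fold different, the median G+C was 50% for the higher ones with a sequence and 46.5% for the lower ones.

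**Figure D4:**
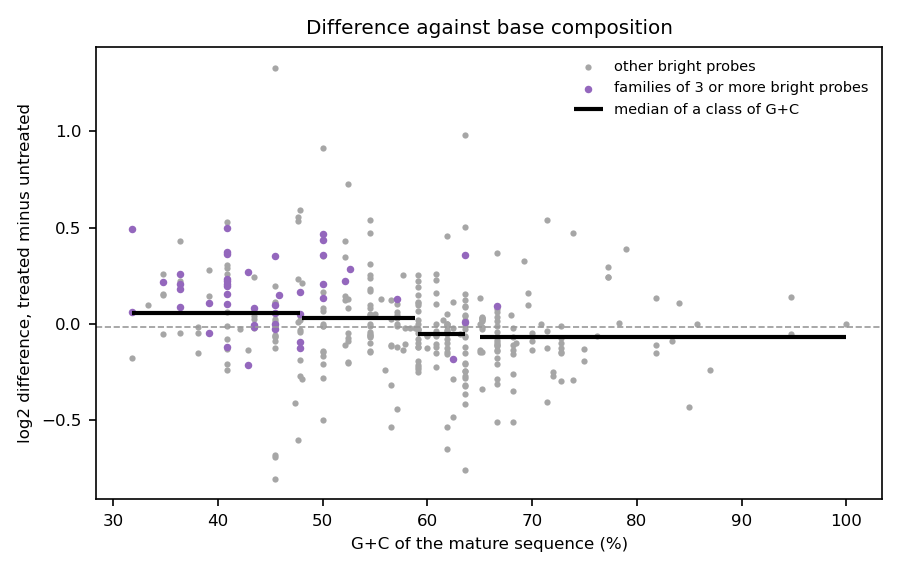
Normalized log2 difference, treated minus untreated, of 353 bright probes against the G+C share of the mature sequence. Purple points are members of seed families with 3 or more bright probes, black lines are the medians of 4 classes of G+C (from 0.06 in the lowest to -0.07 in the highest), and the dashed line is the median of bright probes.

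Neighbouring genes were compared next, since clustered microRNAs are often cut from 1 transcript. Of 38 clusters with at least 2 genes represented, 20 had at least 3 bright probes, and in 5 of these all probes lay on 1 side of the median of bright probes. The 1 cluster wholly below was that of miR-192 and miR-194-2, with a median of -0.60. Wholly above were 4 clusters, those of miR-30c-1 and miR-30e (0.11), of miR-182, miR-183 and miR-96 (0.14), of let-7a-1, let-7d and let-7f-1 (0.20) and of miR-466f and its relatives (0.02). In the 3 settings with 1 scale factor after the offset a member crossed the median in 4 of these 5 clusters, namely miR-194-2-3p (0.10), miR-30c-5p (-0.08), let-7d-5p (-0.05) and miR-466h-3p (-0.09), and only that of miR-182, miR-183 and miR-96 stayed on 1 side. miR-30e-3p (21.7 and 19.0) and miR-466f-3p (23.5 and 16.1) were bright on the treated array only, and so entered their clusters through it. In the let-7a-1 cluster 2 of 4 bright probes come from that cluster alone. This holds for 2 of 5 in the miR-466f cluster and 3 of 4 in that of miR-30c-1. Values of the others cannot be assigned to 1 locus. On chromosome 17 the cluster of miR-99b, let-7e and miR-125a had the highest median of those with at least 3 bright probes, 0.36: let-7e-5p was at 0.50, miR-99b-5p (48.1 and 53.9) at 0.36 and miR-125a-5p (80.6 and 80.5) at 0.36. Its remaining bright probe, miR-125a-3p (359 and 193), was at -0.23.

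The arms of a precursor did not move closely together. Both arms were bright for 69 precursors, and in 40 of these (58.0%) both lay on the same side of the median of bright probes. Between arms the differences correlated at r = 0.14 across precursors. In 6 precursors the arms' differences were at least 1.5-fold apart: miR-210, miR-25, miR-3096a, miR-194-2, miR-5617 and miR-125a. For miR-25, the 3p arm gave 323 and 306 above blank (0.43) and the 5p arm 85.7 and 38.1 (-0.25). The arm with the larger difference in size was the brighter one in 51 of the 69, and the offset reduces the difference of the dimmer arm.

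MicroRNAs described as silenced by DNA methylation in tumours were the list closest to the treatment. Of its 70 probes, 27 were bright, and their median difference was 0.08, with 16 above 0 and 11 below. Over all bright probes the median was -0.02, with 183 of 427 (42.9%) above 0 and 230 (53.9%) below. Of the 27, 1 was at least 1.5-fold higher, miR-34a-5p, and 0 were at least 1.5-fold lower. miR-203-3p (0.53), miR-193a-3p (0.35) and miR-191-5p (0.35) followed. Among the 16 above 0, miR-193a-3p (18.6 and 27.3) and miR-141-5p were bright on the treated array only and entered the list through it. Of the 27, 25 were bright on the untreated and 25 on the treated array. As many therefore entered through the untreated array only, among them miR-129-2-3p at -0.05. The median stayed 0.09 to 0.15 above that of bright probes over the 8 settings and was -0.01 relative to it with the per-spot background column. The 8 bright of 10 probes of the miR-200 family, which maintains the epithelial state, had a median of 0.13 and lay between -0.06 and 0.23, and this median passed below that of bright probes (-0.04) in the 3 settings with 1 scale factor after the offset. All 8, with miR-141-5p as the 1 that was bright on the treated array only, are also among the 27 of the methylation list.

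The imprinted Dlk1-Dio3 cluster, whose expression depends on a methylated control region, had 20 bright of 112 probes. Their median was -0.08, with 6 above 0 and 13 below, beside 42.9% and 53.9% of all bright probes. They ranged from -0.30 to 0.30, and 0 reached 1.5-fold. The median of these 20 lay above that of bright probes (0.02) in the 3 settings with 1 scale factor after the offset. The pluripotency clusters, which are methylated in most somatic cells, had 6 bright of 24 probes and a median of -0.04, which passed above that of bright probes (0.03) in the same 3 settings. Of the repeat-rich Sfmbt2 cluster 8 of 71 probes were bright, all between -0.06 and 0.06.

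Of the tumour-related lists, that of microRNAs raised in colorectal tumours had 13 of 16 bright probes above 0, beside 42.9% of all bright probes. Its median was 0.12 and stayed 0.11 to 0.24 above the median of bright probes over the 8 settings. Among the 13, miR-155-5p (15.9 and 16.5) was bright on the treated array only and entered the list through it. The list's probes of miR-17, miR-18a, miR-20a and miR-92a are also in the miR-17-92 list below. Those of miR-182, miR-183 and miR-96 form a cluster given above, so these are not separate results. miR-21a-5p, an oncogenic microRNA, gave 1214 in wild-type, 1922 in untreated and 1835 in treated organoids, a difference of 0.43. miR-31-5p gave 258, 553 and 500, a difference of 0.47. Before scaling, both tumour arrays exceeded the wild-type array on these probes. Bright probes as a set were also dimmest on the wild-type array, with a median of 59.2 against 93.8 untreated and 63.2 treated. The list described as lowered in colorectal tumours had 4 of 11 above 0, a share near that of all bright probes, and a median of -0.05, which lay above that of bright probes (0.07) in the 3 settings with 1 scale factor after the offset. The miR-17-92 cluster, a target of MYC, and its paralogues had 17 bright probes with a median of 0.08. Of these, 12 were above 0, beside 42.9% of all bright probes. They ranged from miR-25-5p at -0.25 to miR-25-3p at 0.43. The median of these 17 passed just below that of bright probes (-0.01) in the same 3 settings. The p53-induced list held both miR-34a-5p and the pair of miR-192-5p and miR-194-5p, and its 9 bright probes had a median of 0.

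**Figure D5:**
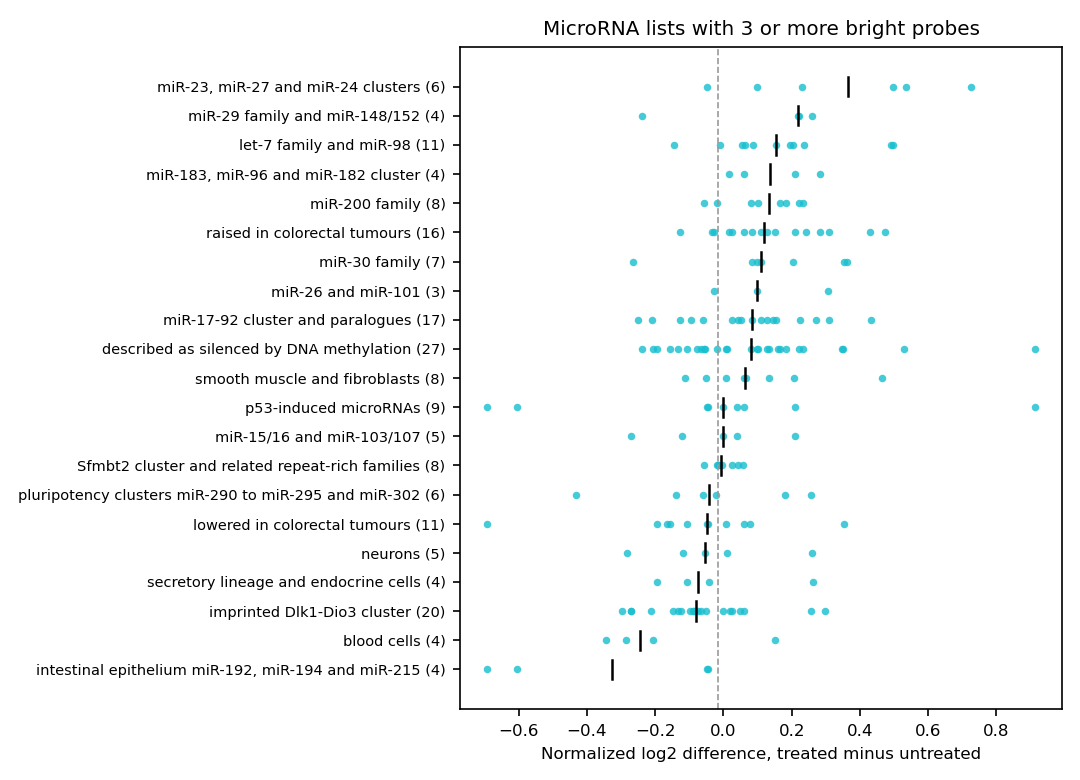
Normalized log2 difference, treated minus untreated, of the bright probes of each microRNA list with 3 or more of them, with the number of bright probes in brackets. Points are probes, short black lines are list medians and the dashed line is the median of bright probes, -0.02. The intestinal epithelium list lies lowest, at -0.33, and that of miR-23, miR-27 and miR-24 highest, at 0.36.

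Markers of other cell types were partly bright. Of the blood-cell list 4 of 13 probes were bright, with a summed signal of 585 in untreated and 303 in treated organoids and a median difference of -0.25. Most of that signal was from miR-486-3p, at 410 and 214. Of the smooth muscle and fibroblast list 8 of 21 were bright, with sums of 242 and 197 and a median of 0.06. Of these 8, 6 were above 0 and 2 below, beside 42.9% and 53.9% of all bright probes. The lowest was miR-199a-5p (28.5 and 14.1), at -0.11, which was bright on the untreated array only. The highest was miR-125b-5p, at 0.47, which gave 9.74 in wild-type, 31.7 in untreated and 45.9 in treated organoids. miR-99a-5p and miR-100-5p were bright on the treated array only and entered the list through it. Neither of the 2 endothelial probes was bright, and the neuronal list had 5 of 15 bright with sums of 2151 and 1779 and a median of -0.05, which was above that of bright probes (0.12) in the 3 settings that scale by 1 factor after the offset. Most of that signal was from miR-128-2-5p, at 1916 and 1649, a difference of 0.26, and the other 4 lay between 13.3 and 153 on either array. The 4 bright of 7 probes of the secretory lineage and endocrine list had a median of -0.07, with miR-375-3p at 70.1 and 33.2 and miR-7a-5p at 68.6 and 63.2 in untreated and treated organoids. The part of cell composition in the differences was not tested.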

How the data were processed

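Total RNA (mirVana extraction, Hy5 label) was hybridised to single-colour arrays, per the labels' protocols. Per the file headers, the scanner files hold a spot median intensity read at 635 nm at 3 gains, with no background subtracted. The authors' deposited table holds an intensity that equals the spot median less a trimmed blank mean, scaled on each array to a listed median of 25. The sources used here do not state the platform or the microRNA database release.

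Probe spots marked as bad were dropped (2 on the wild-type array, none on the tumour arrays). limma 3.58.1 in R 4.3.3 applied normexp, fitted to blank spots, with an offset of 50. Probes were then quantile normalized over the 3 arrays, and log2 values were taken. Blank means and SDs (29.4 and 1.11 untreated, 22.6 and 0.719 treated) trimmed 5% of spots at each end. There was no test, and the number of arrays limits the precision. Tables used Python 3.11.15, pandas 2.3.3 and numpy 2.4.6, figures matplotlib 3.10.9 and rank correlations scipy 1.17.1, and the steps were tested on simulated data. Clusters joined RefSeq genes (GRCm38.p6) within 10000 bases.

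The comparison, the 25 lists and the rule for naming probes were chosen with earlier results of these data known. Probes named were the 15 highest and 15 lowest, the 10 brightest, and members of lists, families and clusters. Some dim probes brighter on the treated array were named after their values were seen. miR-342, miR-345 and miR-882 were taken off the Dlk1-Dio3 list, as they lie elsewhere, and miR-22 off the methylation list, as its value was known, after the data were seen. The alternatives were plain blank subtraction, an offset of 16, the per-spot background column, 4 other scalings, the authors' values, other brightness limits and, chosen after seeing the data, scaling to the spike controls without an offset.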

Additional observations from a re-analysis of the deposited data

How the results depend on the processing

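The counts of 1.5-fold higher and lower probes, 6 and 6, depended on the scale. Higher probes numbered 17 with an offset of 16, 26 with the blank mean subtracted, 42 with the per-spot background column, 2 with the median of commonly detected probes, 1 with the median of all probes, 57 with the spike controls, 38 with the spike controls and no offset (chosen after seeing the data) and 14 in the authors' values. Lower probes numbered 14 with the blank mean subtracted, 55 with the per-spot background column, 39 and 58 with the medians of commonly detected and of all probes, 2 with the spike controls and 53 in the authors' values. The 2-fold counts of 1 and 0 became, for higher probes, 2 with an offset of 16, 9 with the blank mean subtracted, 30 with the per-spot background column, 0 with the median of all probes, 2 with the spike controls, 10 with the spike controls and no offset and 4 in the authors' values, and, for lower probes, 27 with the per-spot background column, 3 and 8 with both medians and 5 in the authors' values. With the blank mean subtracted, all 6 higher and all 6 lower probes named above stayed, as they did with an offset of 16. On either side, settings not listed next kept all 6 as well. Of those named higher, the authors' values kept 4, the median of commonly detected probes 2, and the median of all probes 1. Of those named lower, the spike controls kept 2, the spike controls without an offset 3, and quantile normalization over just the tumour arrays 5. The per-spot background column kept 2 of the higher and 3 of the lower ones. Under that column the difference took the opposite sign for miR-3096a-5p (-0.41), miR-27a-3p (-0.17), miR-192-5p (0.27), miR-210-3p (0.27) and miR-194-5p (1.46), and the median of the cluster of miR-192 and miR-194-2 became 0.27. No paired analysis was possible because each group has 1 array. Of 154 probes above the detection limit on 1 tumour array only, 57 on the treated and 97 on the untreated, the largest lower bound on a difference was 1.15-fold (miR-217-5p), so such dim signals cannot show whether a difference is absent.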
